A study of Mus musculus with 360 samples.

Results

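Transforming growth factor beta (TGF-beta) signalling was followed through 10 genes in skeletal stem and progenitor cells of mouse cranial sutures and growth plate. The genes were chosen by name, and all 10 were found among the 24015 genes of each count table. They comprise the ligands Tgfb1, Tgfb2 and Tgfb3, the receptors Tgfbr1, Tgfbr2 and Tgfbr3, the latent TGF-beta binding proteins Ltbp1 and Ltbp3, the matrix protein Tgfbi, whose name records its induction by TGF-beta, and Inhba, which encodes a subunit of activin A.

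TGF-beta is secreted in a latent form, held by its own propeptide, and a latent binding protein tethers this complex to the extracellular matrix until it is activated. The active ligand binds the type II receptor, encoded by Tgfbr2, which then engages the type I receptor, encoded by Tgfbr1, and the pair phosphorylates Smad2 and Smad3. The betaglycan co-receptor, encoded by Tgfbr3, presents ligand to the type II receptor and is needed most by the ligand that Tgfb2 encodes. Activin A reaches the same Smads through receptors of its own. In the skull vault this pathway is known for its part in the fusion of sutures, and in long bones for holding back the maturation of growth plate chondrocytes.

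The cells were 360 single cells of wild-type CD-1 mice at postnatal day 3, with no other allele or treatment in any group. Their sources were 3 sutures, the fibrous joints between skull bones, namely PF (posterior frontal), COR (coronal) and SAG (sagittal), and GP, the growth plate of the tibia. PF fuses early in mouse life, whereas COR and SAG do not. All had been sorted for CD51 and CD200 at the surface and against markers of blood, endothelial and other lineages, so each group holds only what this gate let through. After cells with under 500 genes or under 10000 reads were left out, 325 remained, with 87 from PF, 74 from COR, 86 from SAG and 78 from GP, each tissue on 2 plates.

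No animal or litter was named for a cell, so each tissue is 1 sample and no test between tissues was possible. Expression is given in CPM, read counts scaled to a common library total, from reads summed over the cells of a tissue or plate, with the ribosomal RNA gene Rn45s left out of the total. A gene was called different where its summed CPM differed at least 2-fold and all 4 comparisons of a plate of one tissue with a plate of the other had 1 sign. Plates are the only repeat within a tissue, and a plate holds cells of 1 tissue alone, so plate and tissue cannot be told apart. Intervals are 95% Poisson intervals for reads and 95% Clopper-Pearson intervals for shares of cells, and cover counting error only.

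SAG plate 2 stood apart from the other 7 plates. Rn45s took 86.8% of its reads against 20.2% to 30.96% elsewhere, and its cells had a median of 875 genes with a read against 2112 to 3867. Between the SAG plates, 75.4% of 10686 genes differed at least 2-fold, and so did 6 of the 10 genes followed here. Values in SAG are therefore also given by plate. Median reads per cell other than Rn45s were lowest in SAG (184673), with 312083 in PF, 369308 in GP and 448803 in COR. Of the lineages the sort excluded, 7 endothelial markers summed to at most 25.6 CPM on any plate and 8 haematopoietic markers to at most 40.6 CPM, with Pecam1, Tek and Cd3e at 0 in all tissues. By plate, 10 osteoblast markers summed to between 28565 and 253176 CPM, and 6 osteoclast markers to between 457 and 7759 CPM. The osteoclast sum was highest on SAG plate 1, where Oscar, Calcr and Atp6v0d2 were at 0 and 1 cell gave 48.8% of it. Calcr was at 0 in all tissues. For 7 pericyte or smooth muscle markers the sums ran from 68.8 to 2172 CPM. The highest, on GP plate 1, came to 91.8% from 1 cell. For 6 neural or glial markers the sums ran from 0.507 to 776 CPM. The highest, on GP plate 2, came to 59.4% from 1 cell. The part of cells with reads of these markers in the values below was not tested.

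Among the ligands, Tgfb3 was the most abundant per kilobase of transcript on every plate. It reached 129 CPM per kilobase in GP, 103 in SAG, 64.6 in PF and 63.4 in COR, where Tgfb2 reached 32.9, 24.3, 10.7 and 11.1. Tgfb1 lay at or under 0.598 CPM per kilobase in PF, COR and GP. The order Tgfb3, Tgfb2, Tgfb1 held on 7 of 8 plates, and on SAG plate 2 Tgfb1 stood above Tgfb2.

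Tgfb3 (chr12:87397694-87419991, minus strand, mm9) stood at 219 CPM in PF (213 to 224) and 215 in COR (210 to 220), against 436 in GP (428 to 443). By plate it was 159 and 233 CPM in PF, 116 and 226 in COR, and 587 and 404 in GP. Both GP plates lay above all 4 plates of PF and COR. The log2 ratio of COR to GP was -1.02 (plates -2.33 to -0.84) and passed the 2-fold threshold, and that of PF to GP was -0.99 (plates -1.87 to -0.79) and fell just short of it. PF and COR differed by a log2 ratio of 0.03, with plate values on both sides of 0. The share of cells with a Tgfb3 read was 52.9% in PF (41.9 to 63.7), 60.3% in GP (48.5 to 71.2) and 60.8% in COR (48.8 to 71.96). These intervals overlapped. In the cells with a read, the median was 453 CPM in GP, 294 in PF and 232 in COR.

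Tgfb2 (chr1:188447065-188529871, minus strand) showed the widest gap among the ligands between GP and both PF and COR. It stood at 51.9 CPM in PF (49.4 to 54.5) and 53.6 in COR (51.1 to 56.2), against 159 in GP (154 to 164). The plates gave 65.3 and 48.6 CPM in PF, 28.4 and 56.4 in COR, and 146 and 162 in GP, so the GP plates did not overlap with those of PF or COR. PF to GP gave a log2 ratio of -1.60 (plates -1.71 to -1.15) and COR to GP gave -1.55 (plates -2.47 to -1.35). Cells with a Tgfb2 read made up 31.03% in PF (21.6 to 41.9), 46.2% in GP (34.8 to 57.8) and 37.8% in COR (26.8 to 49.9), with overlapping intervals. In the cells with a read, Tgfb2 ran from 7.78 to 1552 CPM in PF with a median of 118, from 1.42 to 564 in COR with a median of 71.3, and from 3.91 to 1469 in GP with a median of 196.

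In SAG, the plates disagreed on Tgfb2 more than those of any other tissue. SAG plate 1 held 218 CPM, the highest of the 8 plates, and SAG plate 2 held 51.2 CPM. A Tgfb2 read was found in 21 of 30 cells on plate 1 and in 9 of 56 on plate 2 (16.1%). Tgfb3 went the other way in level, with 238 and 421 CPM, although a read was found in 17 of 30 cells on plate 1 (56.7%) and 14 of 56 on plate 2. Cells with reads of both ligands were 16 of 30 on plate 1 (53.3%) and 2 of 56 on plate 2 (3.57%), against 22.99% in PF, 34.6% in GP and 29.7% in COR.

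Tgfb1 (chr7:26472021-26490096, plus strand) was barely read outside SAG plate 2. It had 21 reads in 3 PF cells, 49 reads in 5 COR cells and 33 reads in 5 GP cells, or 0.693, 1.53 and 1.16 CPM. PF plate 1, COR plate 1 and SAG plate 1 held 0 reads. On SAG plate 2 it reached 32.5 CPM in 8 of 56 cells, and 1 cell gave 58.6% of the SAG reads. Tgfb1 passed the minimum of 10 CPM through this plate alone, so its ratios to SAG carry no weight as support, and they changed sign between plates.

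**Figure D1:**
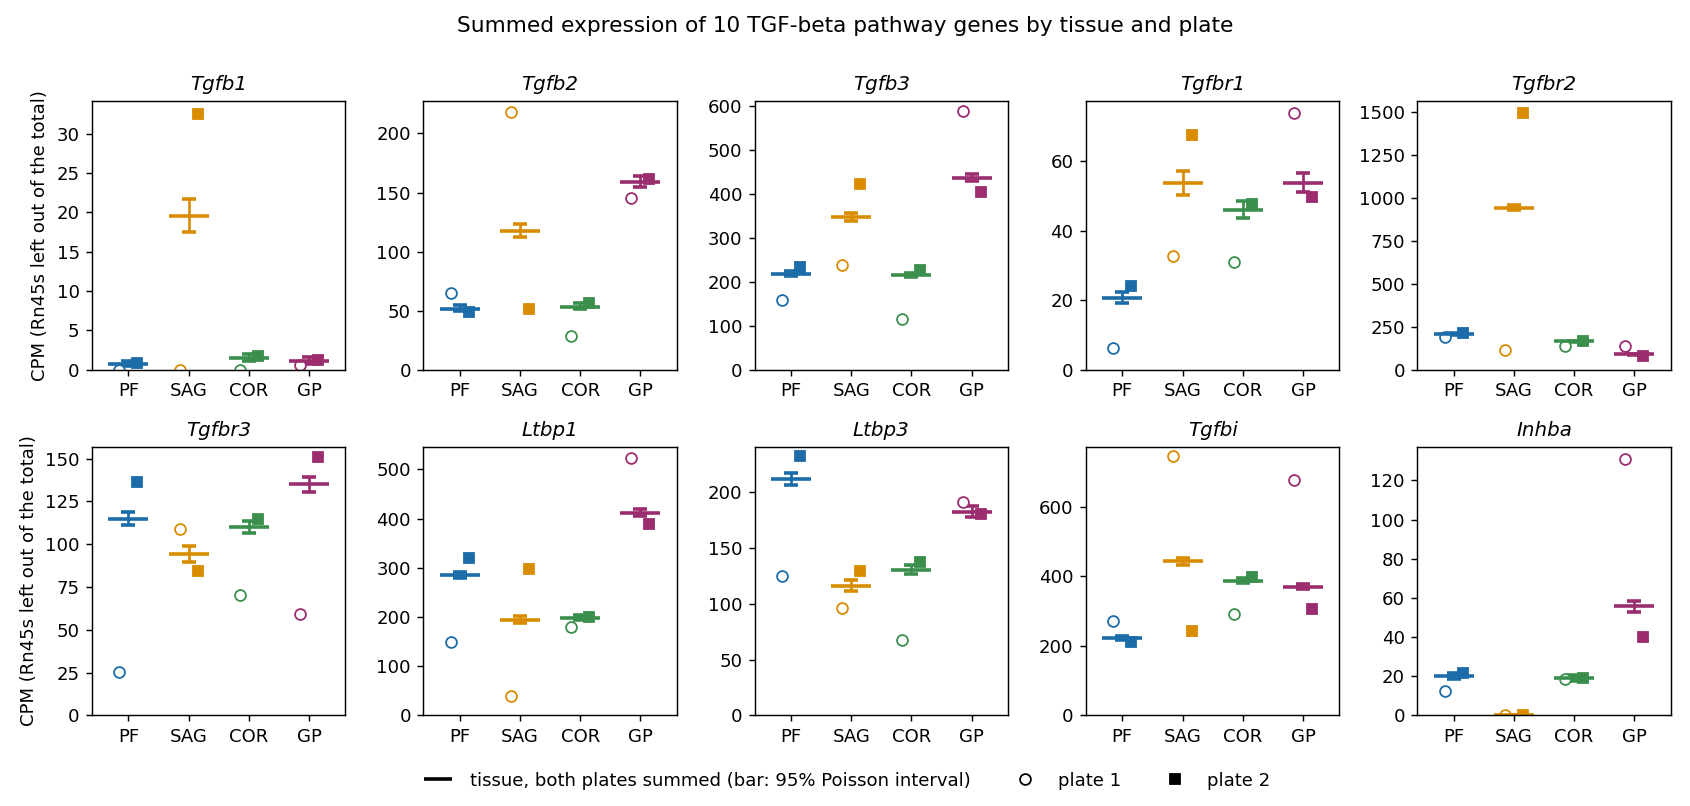
Summed expression of the 10 genes in CPM (vertical axes, linear, each panel with its own scale) by tissue. Horizontal bars are tissues with 95% Poisson intervals, open circles plate 1 and filled squares plate 2. Both GP plates lie above the PF and COR plates for Tgfb2, Tgfb3, Ltbp1 and Inhba, and SAG plate 2 reaches 1495 CPM of Tgfbr2.

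Both latent binding proteins were lowest in share of cells in SAG, and the gap was wider for Ltbp1. Ltbp1 (chr17:75404908-75791852, plus strand) stood at 412 CPM in GP (405 to 420), 286 in PF (280 to 292), 199 in COR (194 to 204) and 195 in SAG (188 to 201). GP plates gave 522 and 389 CPM, COR plates 179 and 201, and PF plates 150.0 and 319. COR to GP gave a log2 ratio of -1.05 (plates -1.54 to -0.95). That of PF to GP was -0.53 (plates -1.79 to -0.29), with 1 sign on all plates and under 2-fold. On SAG, plate 1 held 39.1 CPM from 2 of 30 cells and plate 2 held 298 CPM from 7 of 56 cells. The share of cells with a read was thus 10.5% in SAG (4.9 to 18.9) against 62.8% in GP (51.1 to 73.5), 47.3% in COR (35.6 to 59.2) and 44.8% in PF (34.1 to 55.9). At an equal 100000 reads per cell it was 8 of 80 cells in SAG against 62.7%, 45.1% and 45.7%. The intervals of SAG did not overlap with those of the other tissues at full depth, and both SAG plates (6.67% and 12.5%) lay below every other plate.

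Ltbp3 (chr19:5740904-5758532, plus strand), which belongs to the same family and is known for its part in the growth of teeth and bone, was called in no pair of tissues. It stood at 212 CPM in PF, 183 in GP, 131 in COR and 116 in SAG (96.3 and 129.9 by plate). PF plates gave 125 and 233 CPM and COR plates 67.9 and 138, and these overlapped. Both latent binding proteins were read in the same cell in 29.9% of PF, 20.3% of COR and 43.6% of GP cells, and in 2 of 86 SAG cells (2.33%), both on plate 2.

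Among the receptors, Tgfbr1 was the one that set PF apart from both COR and GP. Tgfbr1 (chr4:47366094-47427803, plus strand) stood at 20.7 CPM in PF (19.1 to 22.4), below 46.01 in COR (43.7 to 48.4) and 53.8 in GP (51.1 to 56.5). By plate it was 6.26 and 24.2 CPM in PF, 30.9 and 47.7 in COR, and 73.9 and 49.6 in GP. The PF plates lay below all plates of COR and GP. PF to COR gave a log2 ratio of -1.11 (plates -2.75 to -0.34) and PF to GP -1.33 (plates -3.37 to -1.002). Without PF plate 1 the ratio to COR was -0.90, under 2-fold, and with every cell weighted equally it was -0.84. A Tgfbr1 read was found in 13.8% of PF cells (7.34 to 22.8), against 35.1% in COR (24.4 to 47.1) and 37.2% in GP (26.5 to 48.9). At equal depth these shares were 12.9%, 32.4% and 35.8%. The interval of PF did not overlap with those of COR and GP at full depth. At equal depth the interval of PF (6.05 to 23.01) overlapped with that of COR (21.8 to 44.5) but not with that of GP (24.5 to 48.5). By plate at full depth, the share was 5.88% and 18.9% in PF, 31.25% and 36.2% in COR, and 45% and 34.5% in GP. The interval of PF plate 2 alone (9.44 to 31.97) overlapped with those of COR and GP. PF plate 1 had the fewest reads other than Rn45s per cell of any plate (median 125830).

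In SAG, Tgfbr1 was read in 8 of 30 cells on plate 1 and 5 of 56 on plate 2, at 32.6 and 67.5 CPM. Of its 53.6 CPM over both plates, 48.2% came from 1 cell. The log2 ratio of PF to SAG was -1.33 with plates of 1 sign, and the ratio was -0.54 without the top cell of each plate, -0.63 without SAG plate 2 and 0.48 with Rn45s counted in the totals. Of the alternatives, only counting Rn45s changed the sign, and it moved the median log2 ratio of all genes from 0.30 to 1.92. The ratio of Tgfbr1 was under 2-fold without the top cells or without SAG plate 2.

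Tgfbr2 (chr9:115993415-116084383, minus strand) showed the reverse order to Tgfbr1 in these tissues. It stood at 208 CPM in PF (203 to 213) and 166 in COR (161 to 170), above 90.3 in GP (86.9 to 93.9). PF plates gave 189 and 212 CPM, COR plates 138 and 169, and GP plates 136 and 80.7. PF to GP gave a log2 ratio of 1.19 (plates 0.47 to 1.38), and that of COR to GP was 0.87 (plates 0.02 to 1.06), with 1 sign and under 2-fold. The share of cells with a read was 47.1% in PF (36.3 to 58.1) and 38.5% in GP (27.7 to 50.2). In COR, 37 of 74 cells had one (38.1 to 61.9%), and the 3 intervals overlapped.

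SAG plate 2 held 1495 CPM of Tgfbr2, and the other 7 plates held 80.7 to 212 CPM. On that plate 37 of 56 cells (66.1%) had a read, with a median of 1796 CPM in those cells and 7336 in the highest, and no cell gave more than 12.7% of the reads. SAG plate 1 held 118 CPM, from 16 of 30 cells, and lay within the range of the PF, COR and GP plates. The log2 ratio of PF to SAG was -2.18 on both SAG plates and 0.82 without plate 2. Rn45s content, the number of genes per cell and Tgfbr2 moved together on SAG plate 2, and the part of the former in the latter was not tested.

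Tgfbr3 (chr5:107535589-107718648, minus strand) did not separate the tissues. It stood at 135 CPM in GP, 115 in PF, 110.1 in COR and 94.1 in SAG, with shares of cells of 32.1%, 35.6%, 37.8% and 23.3%. The SAG plates gave 109 and 84.3 CPM, with a read in 12 of 30 and 8 of 56 cells. The plates of PF alone ran from 25.4 to 136 CPM and those of GP from 59.3 to 151, wider than any difference between tissues. Per kilobase, Tgfbr2 was the leading receptor in PF (25.7) and COR (20.5), and Tgfbr3 in GP (20.6 against 11.2 for Tgfbr2 and 8.23 for Tgfbr1), although on GP plate 1 Tgfbr2 stood above Tgfbr3.

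**Figure D2:**
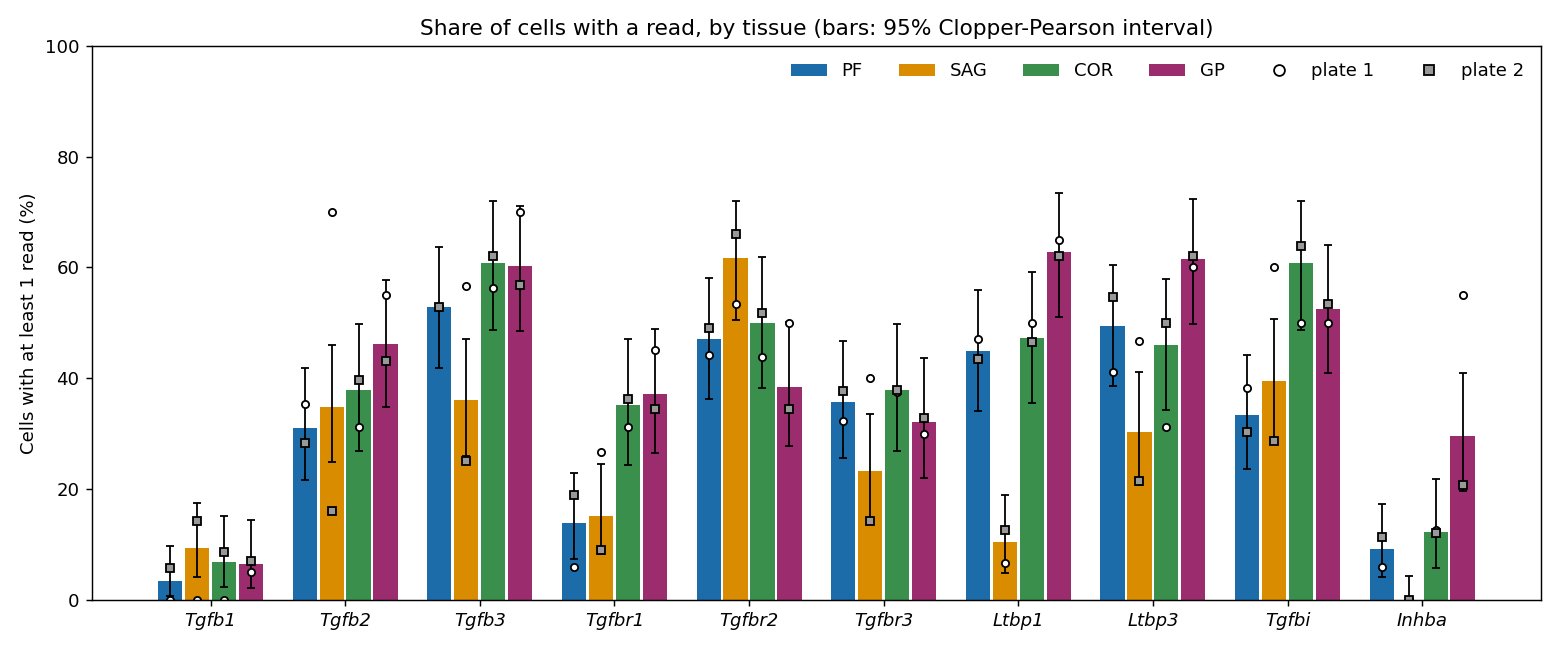
Share of cells with at least 1 read of each gene (vertical axis, percent) by tissue, with 95% Clopper-Pearson intervals as error bars, open circles for plate 1 and grey squares for plate 2. Tgfbr1 is read in 13.8% of PF cells against 35.1% in COR and 37.2% in GP, Ltbp1 in 10.5% of SAG cells, and Inhba in 0 of 86 SAG cells.

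Inhba (chr13:16103684-16119044, plus strand) was highest in GP and unread in SAG. It stood at 55.7 CPM in GP (53.03 to 58.6), 19.9 in PF (18.3 to 21.6) and 19.2 in COR (17.7 to 20.8). GP plates gave 131 and 39.99 CPM, PF plates 12.7 and 21.6, and COR plates 18.5 and 19.3. Both GP plates lay above the others, by a log2 ratio of -1.44 for PF to GP (plates -3.27 to -0.86) and -1.49 for COR to GP (plates -2.75 to -1.02), and the GP plates themselves differed by 1.69 on the log2 scale, with reads in 11 of 20 cells on plate 1 and 12 of 58 on plate 2 (20.7%). PF and COR differed by a log2 ratio of 0.05.

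Inhba had 0 reads in the 86 SAG cells, which allows up to 3.49% of cells with a read by a floor of 3 cells, or 4.2% by the upper Clopper-Pearson limit. The share was 29.5% in GP (19.7 to 40.9), 12.2% in COR (5.71 to 21.8) and 9.2% in PF (4.05 to 17.3). A floor of 3 reads over the SAG cells put summed Inhba 114-fold higher in PF, 110-fold in COR and 320-fold in GP. Both SAG plates were at 0. Without plate 2 the floor is higher, and these values fall to 45.6-fold in PF, 43.98-fold in COR and 128-fold in GP. Up to 3 of 30 cells are then allowed. These folds are not lower bounds, because reads came in clumps, with a median of 140 CPM in the PF cells with a read. By cells, the upper Clopper-Pearson limit in SAG (4.2%) reached into the interval of PF and lay below those of COR and GP. On SAG plate 1 alone this limit was 11.6%, and it reached into the intervals of PF and COR. The PF and COR levels rest on 8 and 9 cells, and 1 cell gave 39.97% of the PF reads.

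Tgfbi (chr13:56710920-56740923, plus strand), which encodes a secreted protein that binds integrins and collagens, was the most abundant of the 10 per kilobase in PF (75.1), SAG (149) and COR (131), and stood second to Tgfb3 in GP (125). The plates did not all keep this order, since Tgfbi (228) stood above Tgfb3 (173) on GP plate 1, and below Tgfbr2 (185) and Tgfb3 (124) on SAG plate 2 (81.3). In CPM it was 223 in PF (217 to 228), below 387 in COR (381 to 394), 370.4 in GP (363 to 378) and 443 in SAG (433 to 453). PF plates gave 270 and 211, COR plates 293 and 398, GP plates 676 and 306, and SAG plates 746 and 241. The PF plates lay below those of COR and GP, with log2 ratios of -0.80 to COR (plates -0.91 to -0.12) and -0.73 to GP (plates -1.67 to -0.18), both under 2-fold. A read was found in 33.3% of PF cells (23.6 to 44.2) and 60.8% of COR cells (48.8 to 71.96), and at equal depth in 35.7% and 63.4%. These intervals did not overlap. Tgfbi on SAG plate 1 came to 46.5% from 1 cell.

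**Figure D3:**
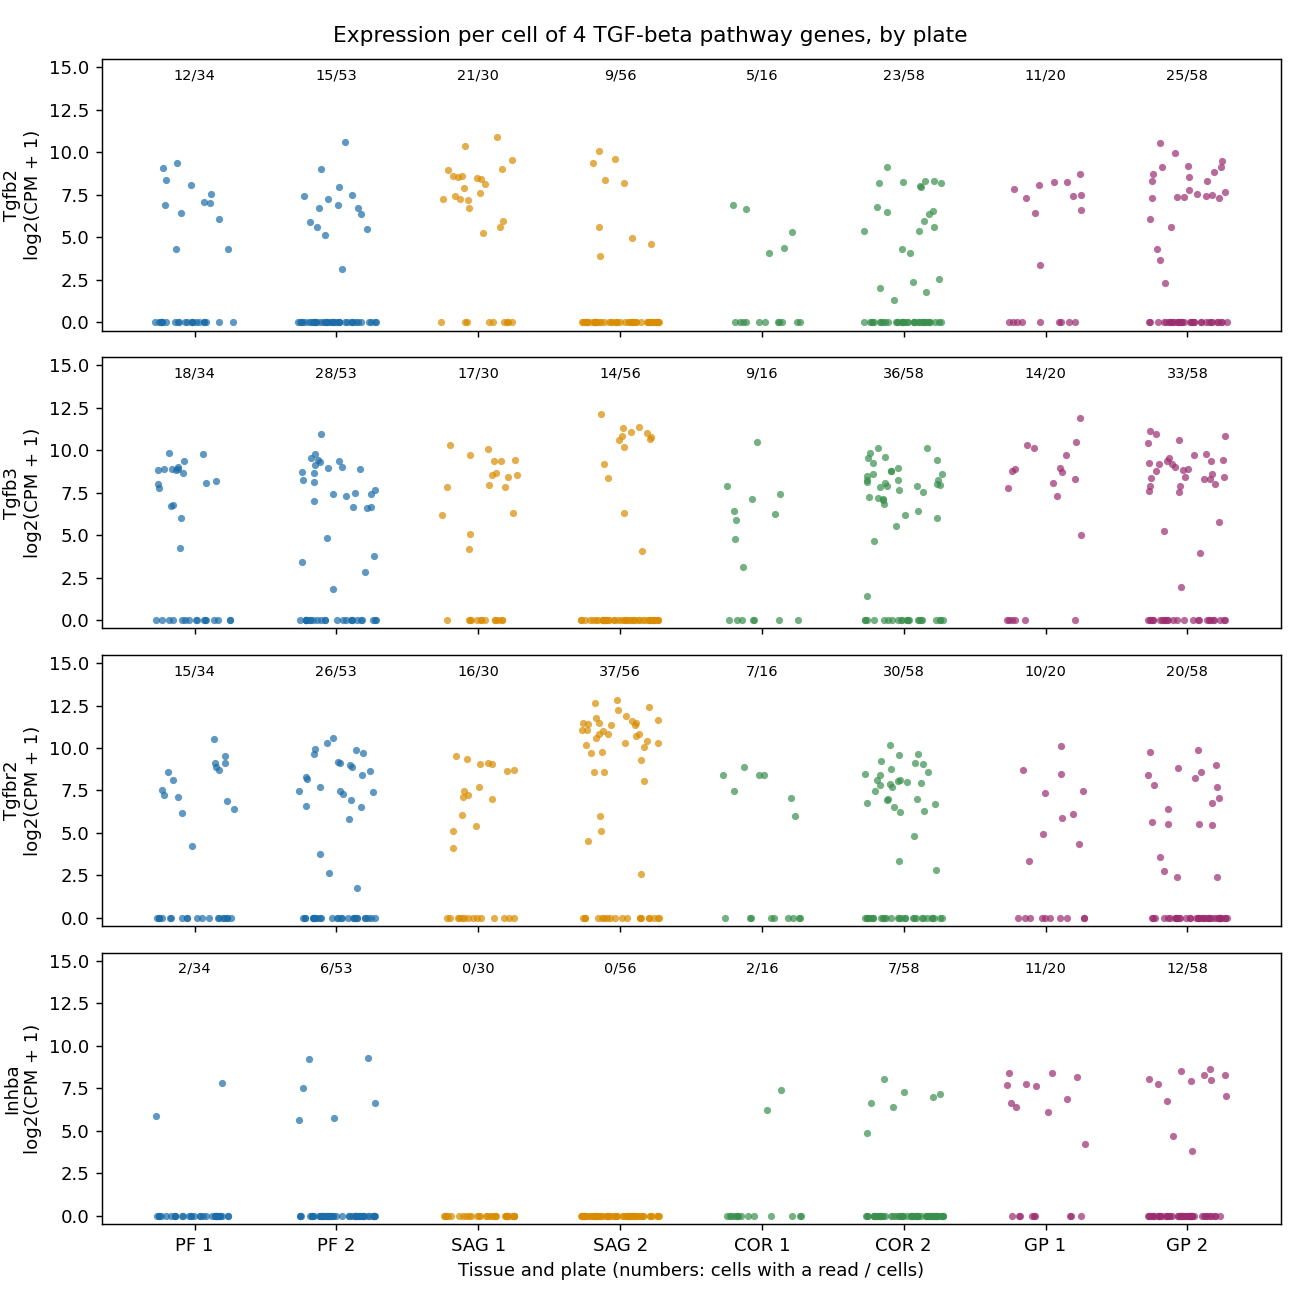
Expression per cell of Tgfb2, Tgfb3, Tgfbr2 and Inhba as log2(CPM + 1) (vertical axes), 1 point a cell, by tissue and plate, with the number of cells with a read over the number of cells above each column. Tgfb2 is read in 21 of 30 cells on SAG plate 1, Tgfbr2 lies highest on SAG plate 2, and no SAG cell has an Inhba read.

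Counted over the 10 genes, 1 was called between PF and COR, Tgfbr1, where 11.9% of 10686 genes were called. Between PF and GP 4 were called, with Tgfb2, Tgfbr1 and Inhba higher in GP and Tgfbr2 higher in PF, where 16.2% of all genes were called. Between COR and GP 4 were called, Tgfb2, Tgfb3, Ltbp1 and Inhba, all higher in GP, where 13.4% of all genes were called. The plates had 1 sign for 7 of the 10 genes in both comparisons with GP, against 35.2% and 35.3% of all genes. The median log2 ratio of the 10 genes was 0.04 for PF to COR, -0.63 for PF to GP and -0.39 for COR to GP, beside 0.01, 0.09 and 0.06 over all genes. PF to GP and COR to GP share the GP cells and are not independent of each other.

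In the comparisons with SAG, 2 genes were called against PF (29.2% of all genes), 1 against COR (31.5%) and 2 against GP (30.7%). Inhba was called in each, Tgfbr1 against PF and Ltbp1 against GP, the last with a log2 ratio of 1.08 (3.36 without SAG plate 2). These shares of called genes lay below those of all genes, whose median log2 ratio to SAG was itself 0.30 for PF, 0.30 for COR and 0.25 for GP. Without SAG plate 2, the criteria were met by 5, 3 and 4 of the 10 genes and by 32.2%, 30.8% and 32.7% of all genes. Without SAG plate 1, they were met by 4, 3 and 4, and by 72.4%, 73.6% and 73.7% of all genes. With 1 SAG plate only 2 plate comparisons need 1 sign, which is a weaker requirement for every gene. The Tgfbr2 ratio of GP to SAG moved from -3.37 to -0.38 when plate 2 was left out.

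**Figure D4:**
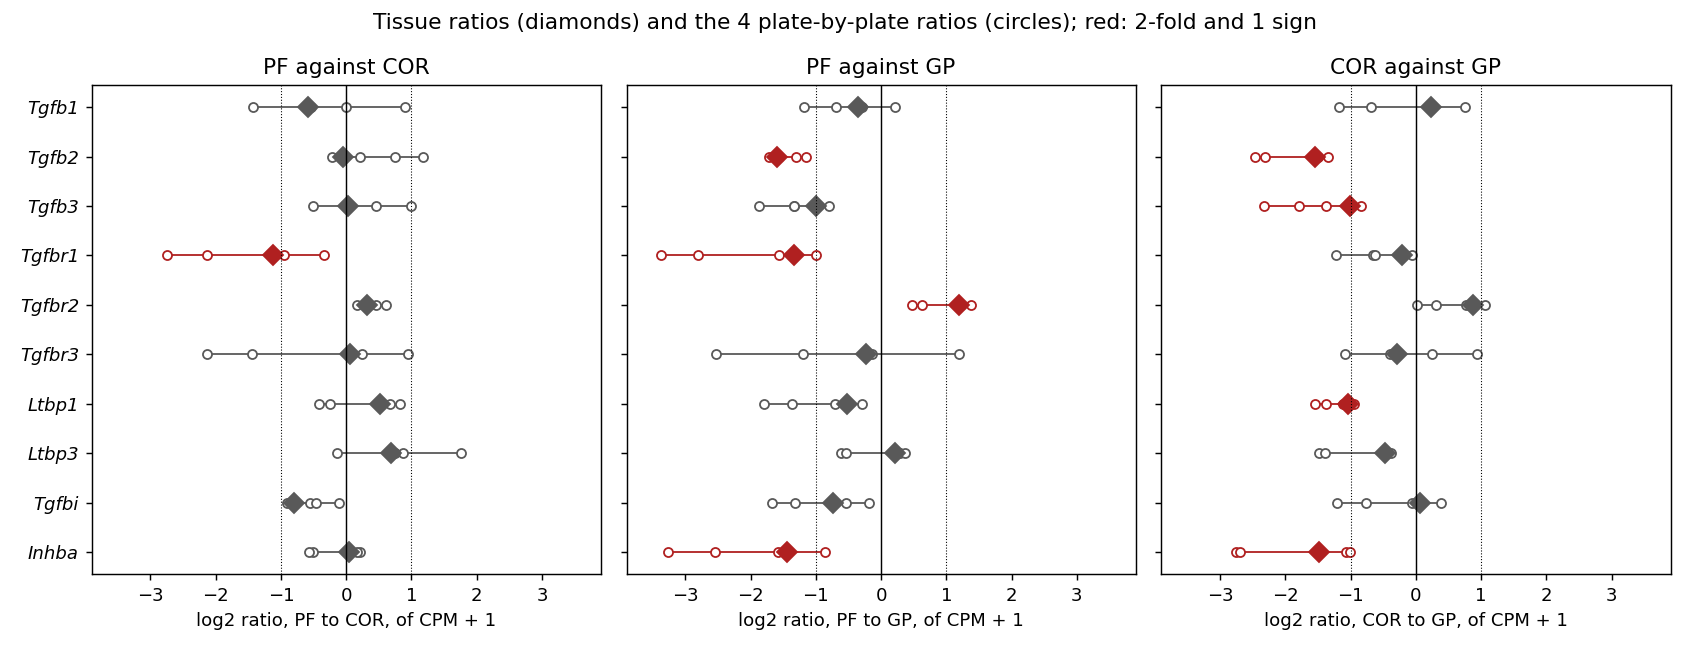
Log2 ratios of CPM + 1 (horizontal axis) for PF against COR, PF against GP and COR against GP. Diamonds are the tissue ratios, circles the 4 plate-by-plate ratios joined by a line, dotted lines mark 2-fold, and red marks genes with at least 2-fold and 1 sign on all plates (Tgfbr1 for PF against COR, Tgfb2, Tgfbr1, Tgfbr2 and Inhba for PF against GP, and Tgfb2, Tgfb3, Ltbp1 and Inhba for COR against GP).

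Whether single cells held the parts of a working pathway was asked next. A read of any of the 3 ligands was found in 62.1% of cells in PF (51.03 to 72.3), 73.1% in GP (61.8 to 82.5), 72.97% in COR (61.4 to 82.6) and 55.8% in SAG. In SAG these were 22 of 30 cells on plate 1 (73.3%) and 26 of 56 on plate 2 (46.4%), so plate 1 lay level with COR and GP. Reads of both Tgfbr1 and Tgfbr2, the pair that makes up the signalling receptor, were found together in 8.05% of cells in PF (3.3 to 15.9), 9.3% in SAG (4 of 30 and 4 of 56 cells by plate), 20.5% in GP (12.2 to 31.2) and 20.3% in COR (11.8 to 31.2). A ligand beside both receptors was read in 7 of 87 PF cells, 5 of 86 SAG cells (4 of them on plate 1), 7 of 74 COR cells and 15 of 78 GP cells. The intervals of the receptor pair overlapped between PF, COR and GP. These shares depend on depth and limit cells with reads, not cells that express the genes, and at equal depth the receptor pair was read in 4 of 70 cells in PF, 8 of 80 in SAG, 13 of 67 in GP and 15 of 71 in COR. A cell held reads of a median of 3 of the 10 genes in PF and 4 in COR and GP, and of 4 on SAG plate 1 and 2 on SAG plate 2.

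The genes were then set beside Ibsp, which encodes bone sialoprotein and marks osteoblasts, in cells thinned to 100000 reads. Whether a cell had an Ibsp read was taken at its full depth, as for Col2a1 and Acta2 below. Only the genes set beside these markers were taken at 100000 reads. An Ibsp read was found in 22 of 70 PF cells. In these PF cells Tgfb2, Tgfb3, Tgfbr2 and Tgfbr3 were mostly unread. Tgfbr2 was read in 2 of the 22 (9.09%, 1.12 to 29.2) and in 30 of the 48 cells without Ibsp (62.5%, 47.4 to 76.05). Tgfb3 was read in 3 of 22 against 31 of 48, Tgfb2 in 2 of 22 against 22 of 48, Tgfbr3 in 2 of 22 against 21 of 48, and Tgfbi in 3 of 22 against 22 of 48. The intervals did not overlap for Tgfb2, Tgfb3, Tgfbr2 and Tgfbr3, and Tgfbr1 stood at 13.6% and 12.5%. Of the 7 genes read in at least 20% of PF cells, 6 were at least 30 percentage points lower in the cells with Ibsp, as were 3.95% of the 4683 genes compared in the same way. The median difference was -34.7 points for the 7 genes and -0.189 over all genes, and the median number of genes per cell was 2350 with and 2558 without Ibsp.

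On both PF plates, Tgfb2, Tgfb3, Tgfbr2 and Tgfbr3 were each read in a smaller share of the cells with Ibsp. On plate 1, Tgfb3 and Tgfbr2 were each read in 0 of 8 cells with Ibsp and 9 of 14 without. On plate 2, Tgfb3 was read in 3 of 14 against 22 of 34, and Tgfbr2 in 2 of 14 against 21 of 34. Within a plate the intervals of these genes overlapped, except for Tgfbr2 on plate 2 (1.78 to 42.8 against 43.6 to 77.8).

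In GP, where all 15 thinned cells with an Ibsp read were on plate 2, Tgfb2, Tgfb3 and Inhba were read in a smaller share of those cells, and only the intervals of Tgfb3 did not overlap. Tgfb3 was read in 5 of 15 against 41 of 52, Tgfb2 in 3 of 15 against 31 of 52, and Inhba in 1 of 15 against 21 of 52. Tgfbr2 stood at 26.7% (7.79 to 55.1) and 44.2% (30.5 to 58.7), and Tgfbr1 at 33.3% and 36.5%. Tgfb1, Tgfbr3 and Ltbp3 went the other way, with Tgfb1 in 2 of 15 against 2 of 52, Tgfbr3 in 7 of 15 against 17 of 52 and Ltbp3 in 10 of 15 against 31 of 52. The intervals overlapped for all of these receptors and for Tgfb1, Tgfb2, Ltbp3 and Inhba. Within plate 2 alone, Tgfb3 was read in 5 of 15 against 27 of 35 cells, Tgfb2 in 3 of 15 against 20 of 35, and Inhba in 1 of 15 against 10 of 35, and the intervals of all 3 overlapped. The median difference was -17.6 points over 9 genes and -5.0 over 5250 genes.

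In COR, Tgfbi showed the widest difference of the 10 genes, with a read in 5 of 17 cells with Ibsp (29.4%, 10.3 to 55.96) and 40 of 54 without (74.1%, 60.3 to 85.04). Tgfb3 was read in 7 of 17 against 37 of 54, Tgfb2 in 3 of 17 against 21 of 54 and Tgfbr3 in 3 of 17 against 22 of 54. The intervals of these 3 genes overlapped. Tgfbr2 stood at 47.1% and 51.9%, and Tgfbr1 went the other way, at 41.2% and 29.6%. The median difference was -13.2 points over 8 genes and 0.436 over 5753 genes. Of the 8, 1 was at least 30 points lower with Ibsp, as were 1.62% of all genes compared. The COR plates did not behave alike. On plate 2, Tgfbi was read in 1 of 9 against 36 of 48 and Tgfb3 in 2 of 9 against 33 of 48, whereas on plate 1, with 8 cells with Ibsp and 6 without, Tgfbi was read in 4 of 8 against 4 of 6 and Tgfb3 in 5 of 8 against 4 of 6.

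In SAG, 8 thinned cells had an Ibsp read, 4 on each plate. Over both plates, Tgfbr2 was read in 5 of 8 against 43 of 72 cells without Ibsp, and Tgfbr1 in 3 of 8 against 10 of 72. Ltbp1 was read in 3 of 8 against 5 of 72, Tgfb2 in 1 of 8 against 25 of 72 and Tgfb3 in 2 of 8 against 27 of 72. The intervals overlapped for all 10 genes. The plates went opposite ways for both receptors. On plate 1, Tgfbr2 was read in 1 of 4 against 12 of 21 cells and Tgfbr1 in 1 of 4 against 7 of 21. On plate 2, Tgfbr2 was read in 4 of 4 against 31 of 51 and Tgfbr1 in 2 of 4 against 3 of 51.

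**Figure D5:**
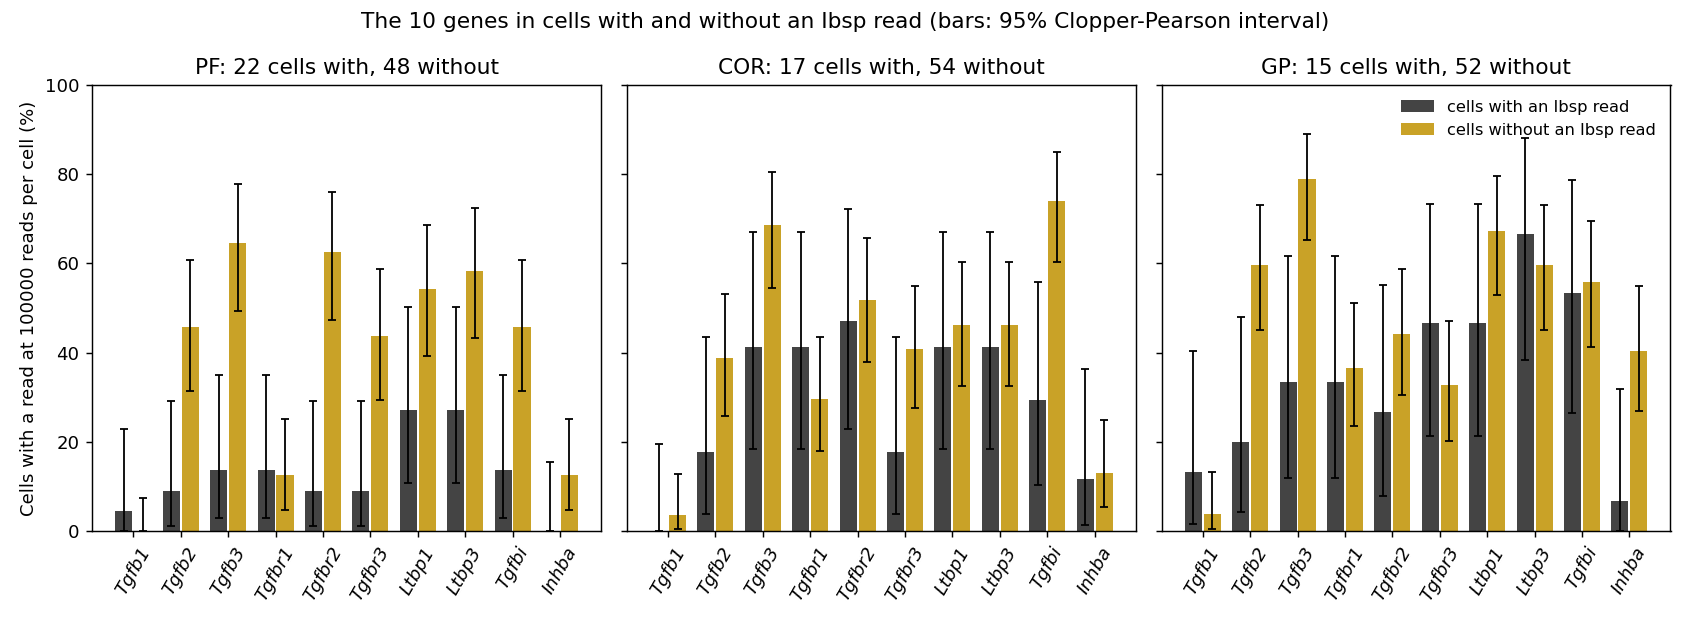
Share of cells with a read of each of the 10 genes (vertical axis, percent, cells thinned to 100000 reads other than Rn45s) in cells with an Ibsp read at full depth (dark bars) and without one (yellow bars) in PF, COR and GP, with 95% Clopper-Pearson intervals. In PF, Tgfbr2 is read in 9.09% against 62.5% of cells and Tgfb3 in 13.6% against 64.6%.

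Because the share of cells with Ibsp differed between tissues, at 31.4% in PF, 23.9% in COR and 22.4% in GP, the tissue ratios were also taken over the cells without Ibsp. PF to GP then gave log2 ratios of -1.35 for Tgfb2, -1.26 for Tgfbr1, -1.22 for Inhba and 1.59 for Tgfbr2, each with plates of 1 sign, as over all cells. That of COR to GP was -1.50 for Tgfb2, -1.06 for Tgfb3 and -1.75 for Inhba, with plates of 1 sign, and -0.98 for Ltbp1, under 2-fold. The ratio of Tgfbr1 for PF to COR was -0.94, and its plates ran from -2.74 to 1.91. That call between PF and COR was thus absent among cells without Ibsp, where COR plate 1 had 7 cells.

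The genes were also set beside Col2a1, which encodes the collagen of cartilage. SAG plate 1 was rich in such cells, with a Col2a1 read in 18 of 25 thinned cells. Tgfb2 was read in 18 of these 18 (at least 81.5% by the interval) and in 0 of the 7 without Col2a1 (at most 40.96%). Tgfb3 was read in 14 of 18 against 1 of 7 and Tgfbr2 in 12 of 18 against 1 of 7, with overlapping intervals for both. On SAG plate 2, Tgfb2 was read in 7 of 33 cells with Col2a1 and 1 of 22 without. The median difference on SAG plate 1 was 24.6 points over 7 genes and 7.94 over 5603 genes. In GP the direction was the other, with Tgfb2 in 8 of 19 cells with Col2a1 and 26 of 48 without, and Tgfb3 in 9 of 19 and 37 of 48. In PF, Tgfb2 was read in 3 of 6 against 21 of 64 and Tgfb3 in 5 of 6 against 29 of 64. In COR, Tgfb2 was read in 0 of 3 against 24 of 68 and Tgfb3 in 2 of 3 against 42 of 68. The intervals of both genes overlapped in GP, PF and COR. The 11 chondrocyte markers summed to 22619 CPM on SAG plate 1, 14610 on SAG plate 2, 7816 on GP plate 2 and 736 to 2265 on the other 5 plates, and none of these markers was at 0 on a SAG plate. Of the sum, 1 cell gave 42.4% on SAG plate 1, 12.3% on SAG plate 2 and 58.9% on GP plate 2. The part of cells with these markers in the Tgfb2 level of SAG plate 1 was not tested.

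Beside Acta2, which encodes smooth muscle actin, Tgfbr3 was read in 5 of 28 COR cells with an Acta2 read and 20 of 43 without, with overlapping intervals. Inhba was read in 4 of 23 PF cells with Acta2 against 2 of 47 without, in 6 of 28 against 3 of 43 in COR, and in 3 of 14 against 19 of 53 in GP. The direction in GP was thus opposite to that in PF and COR, and the intervals overlapped in each tissue. No thinned SAG cell had an Acta2 read.

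Over single cells the 10 genes went together only loosely. After the mean of each plate was taken out, the highest Pearson correlation of log2(CPM + 1) between any 2 of them was 0.27, for Tgfbr2 and Ltbp1, over 325 cells that share plates and differ in depth. The genes most like each were taken from the 4832 others read in at least 20% of cells. For Tgfb3 they were Mfap4 (r = 0.51), which encodes a microfibril-associated protein, Il11ra1 (0.51), an interleukin receptor chain, and Fmod (0.50), which encodes the TGF-beta binding proteoglycan fibromodulin. For Ltbp1 they were Cilp2 (0.48), Itgbl1 (0.44) and Mfap4 (0.44). For Tgfbr2 they were Igf1 (0.43), Col14a1 (0.41) and Boc (0.40). The best r was 0.37 for Tgfbi (Itm2a), 0.36 for Tgfb2 (Igfbp7), 0.30 for Ltbp3 (Lrp1), 0.27 for Inhba (C1qtnf3) and 0.26 for Tgfbr1 (Ccdc53). Mfap4 stood among the 3 nearest genes of Tgfb3, Ltbp1 and Ltbp3. Correlations of this size in sparse counts are a description of these cells.

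A wider list of 63 pathway genes was examined for the rest of the route, of which 62 were in the tables and 51 reached 10 CPM in a tissue. Of these 51, 6 were called higher in PF and 4 in COR, where 11.9% of all genes were called in either direction. Between PF and GP, 5 were higher in PF and 10 in GP (16.2% of all genes), and between COR and GP, 1 was higher in COR and 8 in GP (13.4% of all genes). Against SAG, the numbers higher in the other tissue and in SAG were 8 and 9 for PF, 7 and 13 for COR, and 8 and 10 for GP, where 29.2%, 31.5% and 30.7% of all genes were called.

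Among the transducers, Smad3 was higher in PF (85.6 CPM) than in GP (30.1), with a log2 ratio of 1.48 (plates 0.88 to 6.51), and Smad2, Smad4 and Zfyve9 were called in none of the 3 pairs without SAG. Of the feedback genes, Pmepa1, which sequesters receptor Smads, was higher in PF (95.9 CPM) than in GP (26.5), with a log2 ratio of 1.82, and the co-repressor Tgif1 was lower in PF (6.90 against 32.8, log2 ratio -2.10).

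Of the other receptors, the type I receptors Acvr1 and Acvrl1 had higher summed CPM in PF than in COR and GP. Acvr1 stood at 68.4 CPM in PF, 28.1 in COR and 17.03 in GP, with log2 ratios of 1.26 and 1.94. Its shares of cells were close, at 20.7%, 20.3% and 17.9%. Acvrl1 stood at 36.5, 9.33 and 2.32 CPM, with log2 ratios of 1.86 and 3.50, and was read in 18.4%, 6.76% and 2.56% of cells. Of PF, COR and GP, only PF reached the minimum of 10 CPM of Acvrl1, so its calls carry no weight as support. Of its GP reads 87.9% came from 1 cell. The co-receptor Eng, whose protein (CD105) the sort selected against, was read in 4 of 87 PF cells and 4 of 74 COR cells and not in GP.

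In the latent complex, Fbn2, which encodes fibrillin 2 of the microfibrils that latent TGF-beta binding proteins attach to, showed the widest gap of the list among PF, COR and GP. It stood at 167 CPM in PF, 6.59 in COR and 271 in GP, with log2 ratios of 4.47 for PF to COR (plates 4.15 to 4.74) and -5.16 for COR to GP (plates -5.91 to -5.00), and was read in 41.4%, 5.41% and 52.6% of cells. Ltbp2 was higher in PF (259.9 CPM) than in GP (65.8), with a log2 ratio of 1.97. Lrrc32, which encodes a surface anchor of latent TGF-beta, stood at 12.4 CPM in PF, 1.53 in COR and 7.06 in GP, read in at most 6.41% of the cells of each. Of these tissues only PF reached the minimum of 10 CPM of Lrrc32, and 1 cell gave 50% of its PF reads. Its calls therefore carry no weight as support. Of 13 activators of latent TGF-beta tested, only Itgb8 was called in a pair without SAG, at 12.8 CPM in 7.69% of GP cells and with no read in PF. Of its GP reads 43.1% came from 1 cell, and in COR, where it was read in 1.35% of cells, it stood at 14.2 CPM. Itgb8 passed the minimum through the tissues where it was read, so its call carries no weight as support.

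The proteoglycans that bind TGF-beta differed in opposite ways. Fmod stood at 2775 CPM in PF, 1271 in COR and 5602 in GP, and Aspn, which encodes asporin, at 580.3, 2201 and 2907 CPM. Fmod was thus higher in PF than in COR by a log2 ratio of 1.13, and Aspn was higher in COR than in PF (log2 ratio of PF to COR -1.92). Follistatin, the activin antagonist encoded by Fst, was like Inhba highest in GP, with 46.3 CPM against 3.40 in PF and 1.15 in COR. It passed the minimum of 10 CPM through GP alone, 1 cell gave 33.2% of the GP reads, and the plate ratio of PF to GP nearest to 0 was -0.03.

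Of 12 response genes tested, 6 were called higher in GP than in PF and 1, Pmepa1, higher in PF, where 16.2% of all genes were called. Between COR and GP, 4 were higher in GP and 0 in COR, where 13.4% of all genes were called. Ctgf, which encodes connective tissue growth factor, stood at 142 CPM in PF, 65.1 in COR and 473 in GP. Junb stood at 18.7, 59.1 and 141 CPM in the same tissues. Postn, which encodes periostin, stood at 952 CPM in PF against 6114 in COR and 6144 in GP, with log2 ratios of -2.68 (plates -2.89 to -1.63) and -2.69 (plates -2.86 to -2.13). Tagln stood at 46.2, 18.9 and 128 CPM, with 75.4% of the GP reads from 1 cell. Each of these genes also answers to signals other than TGF-beta, and the response of the cells to TGF-beta itself was not measured.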

How the data were processed

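The authors deposited raw read counts by gene for every cell in 8 tables, 1 for each plate. The submitters' processing notes name STAR 2.5.3a, HTSeq and mouse build mm9. Neither the annotation used for counting nor its strand setting is given in the sources used here. The protocol has no molecular identifiers, so counts are of reads after PCR. Groups came from record titles. For 1 cell the title said SAG and the description PF, and it was kept as SAG. 0 of the 325 cells had identical counts, 0 columns lacked a cell, and no doublet caller was run, because cells were sorted singly.

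Cells were kept with at least 500 genes and 10000 reads. Reads were summed per tissue and plate and scaled to CPM without Rn45s, and ratios are log2((CPM+1)/(CPM+1)), which understates changes of weak genes. The background was the 10686 genes that reached 10 CPM in any tissue. Shares were also taken at 100000 reads per cell, leaving 70 PF, 80 SAG, 71 COR and 67 GP cells. Coordinates and exon lengths are from GENCODE on mm9. The arithmetic of the ratios and calls was tested on simulated counts. Python 3.11.15, pandas 2.3.3, scipy 1.17.1, edgeR 4.0.16 (TMM factors) and DESeq2 1.42.0 (size factors) were used, with no count test, since each tissue is 1 sample. The genes, marker and pathway lists were chosen with earlier results of these data known. The rule for names was all 10 genes, the pathway genes called between PF, COR and GP (at most 4 a group by size of ratio), and the 3 most correlated genes of each member read in at least 20% of cells. Alternatives covered scaling, cell filters, weighting, pseudocounts, top cells and plates. Results for some neighbouring or correlated genes are not reported here.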

Additional observations from a re-analysis of the deposited data

Results flagged for a closer look

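The 35 cells left out by the filter held 31 reads of the 10 genes, in 8 cells, which came to notice as signal in cells that the report's comparisons leave out and only the alternative with no filter on cells includes. That is 37.2 CPM over the 10 genes together, against 1645 CPM in the cells kept. Ltbp3 gave 15 of the 31 reads and Tgfbr2 gave 9.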

How the results depend on the processing

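No paired analysis was possible because no animal is named, plate numbers do not pair tissues and no test was made. The number of the 10 genes called stayed within 1.5-fold in every comparison with no filter on cells, no minimum CPM, a pseudocount of 0.1, the top cell of each plate left out, and the cell with conflicting labels left out. Between PF and COR it was 1, and 0 with every cell weighted equally or with a pseudocount of 10. Between COR and GP it was 4, and 2 with Rn45s counted in the totals. Between PF and SAG it was 2, and 5 with at least 1500 genes and 50000 reads per cell (which leaves 0 cells of SAG plate 2), 5 without SAG plate 2 and 4 without SAG plate 1. Between COR and SAG it was 1, and 3 with Rn45s counted, with DESeq2 size factors, with the stricter cell filter, with cells weighted equally, and without either SAG plate. Between GP and SAG it was 2, and 5 with Rn45s counted, 1 with TMM factors, 1 with DESeq2 size factors, and 4 without either SAG plate.

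Leaving out each plate in turn gave 0 to 2 genes for PF against COR (0 without PF plate 1, 2 without PF plate 2), 3 to 8 for PF against GP (8 without PF plate 2), 3 to 6 for COR against GP (6 without COR plate 2), 4 to 5 for PF against SAG, 1 to 3 for COR against SAG and 2 to 4 for GP against SAG. With a plate left out only 2 plate comparisons need 1 sign, and the share of all genes called was then 19.1% to 30.8%, 23.4% to 34.6%, 20.3% to 32.7%, 32.2% to 72.4%, 30.8% to 73.6% and 32.7% to 73.7% in the same order, with 34.6% for PF against GP without PF plate 2. Of 930 alternative values of single-gene ratios, 812 moved by less than the spread of the 4 plate ratios, 117 moved by more, and 1 called ratio changed sign, Tgfbr1 for PF to SAG, which was 0.48 with Rn45s counted. Of 210 alternative shares, 31 left the 95% interval. The differences by Ibsp of Tgfb2, Tgfb3, Tgfbr2 and Tgfbi in PF, COR and GP kept their sign in 24 of 24 alternatives, with at least 100 CPM of Ibsp or with all reads. Only these 4 genes, all lower with Ibsp in the 3 tissues, were put through both settings. Some differences were small, such as -2.44 points for Tgfbi in GP. Neither setting split the plates, and on COR plate 1 Tgfb2 was read in 3 of 8 cells with Ibsp and 2 of 6 without. Both Ibsp settings, and SAG without plate 1, were chosen after seeing the data. The cause of these shifts was not tested. Depth limits the shares of the receptor pair and of Inhba, which rest on 7 to 23 cells a tissue, apart from Inhba in SAG with 0.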
